A study of Mus musculus with 24 samples.

Results

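The voltage-gated sodium channels, voltage-gated calcium channels and hyperpolarization-activated (HCN) channels were examined in cultured mouse cortical neurons treated with a BET protein inhibitor, with the neurotrophin BDNF, or with both. Members were taken by gene symbol alone: every probe set annotated to 1 gene whose symbol began with Scn, Cacna1, Cacna2d, Cacnb, Cacng or Hcn in the usual numbering. This gave 87 of the 34958 probe sets that named 1 gene, and 37 of 18194 genes. The 37 genes were 8 sodium channel alpha subunits, 3 sodium channel beta subunits, 9 calcium channel pore subunits (4 of CaV1, 3 of CaV2 and 2 of CaV3), 4 alpha2delta subunits, 3 calcium channel beta subunits, 8 gamma subunits and 2 HCN channels.

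Primary cortical neurons were taken at embryonic day 18, kept for 1 week in culture and then treated, and total RNA was measured on 24 Affymetrix arrays. There were 8 groups of 3 arrays: DMSO alone as the solvent control, 1 µM IBET858, 50 ng/ml BDNF, and both agents at these doses, each for 2 h or 12 h. IBET858 is an inhibitor of BET proteins, which read acetylated histones and help RNA polymerase to elongate. BDNF activates the receptor TrkB and is used in cortical cultures to induce activity-dependent genes. Nothing in the labels gives the strain, or says that the 3 arrays of a group came from separate cultures or animals, so the p-values below measure the spread between arrays, which may be technical.

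Sodium channels carry the upstroke of the action potential. Their alpha subunit forms the pore, and their beta subunits tune its gating and place it in the membrane. Calcium channels turn depolarization into calcium entry: CaV1 (L-type) channels signal to the nucleus, CaV2 channels trigger transmitter release and CaV3 (T-type) channels open near rest and support bursting. Beta and alpha2delta subunits carry the calcium channel pore to the membrane. Most gamma subunits are better known as TARPs, the partners that carry AMPA receptors to the synapse. HCN channels pass a depolarizing current when the membrane is hyperpolarized. Several of these genes, Scn1a and Scn2a among them, are known from inherited epilepsy and neurodevelopmental disorders.

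The promoters of 3 members are shown because the results turn on them: Scn2a, which had the largest fall under IBET858 in BDNF-treated cultures, and Cacna2d1 and Cacng5, the members called higher after 2 h of BDNF. Each sequence is the 250 bases upstream of a RefSeq transcription start in build GRCm38.p6, 5′ to 3′ on the gene's own strand, and Scn2a and Cacng5 each have a pair of annotated starts. Capitals mark every match, on either strand, to a GC box (GGGCGG), an EGR site (GCGNGGGCG), a CRE core (TGACG), an AP-1 site (TGANTCA) or a TATA box (TATAAA). A GC box and an EGR site can share bases. The stretches lie at chr2:65620519-65620768 and chr2:65668436-65668685 (plus strand), chr5:15934441-15934690 (plus strand), and chr11:107915056-107915305 and chr11:107911363-107911612 (minus strand).
Scn2a start 1: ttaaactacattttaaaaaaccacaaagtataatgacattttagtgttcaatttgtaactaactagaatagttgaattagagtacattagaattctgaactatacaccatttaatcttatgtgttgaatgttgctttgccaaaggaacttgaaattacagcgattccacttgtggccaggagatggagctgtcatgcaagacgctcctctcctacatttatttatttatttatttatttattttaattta
Scn2a start 2: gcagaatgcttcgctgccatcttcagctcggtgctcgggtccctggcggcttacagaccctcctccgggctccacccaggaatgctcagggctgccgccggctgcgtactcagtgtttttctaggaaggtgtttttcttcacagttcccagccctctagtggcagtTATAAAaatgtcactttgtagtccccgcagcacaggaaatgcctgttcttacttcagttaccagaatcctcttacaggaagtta
Cacna2d1: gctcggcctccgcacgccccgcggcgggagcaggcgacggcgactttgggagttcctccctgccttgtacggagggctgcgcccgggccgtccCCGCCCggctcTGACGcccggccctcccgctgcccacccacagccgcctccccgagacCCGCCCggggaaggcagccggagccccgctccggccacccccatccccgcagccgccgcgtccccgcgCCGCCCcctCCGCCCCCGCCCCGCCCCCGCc
Cacng5 start 1: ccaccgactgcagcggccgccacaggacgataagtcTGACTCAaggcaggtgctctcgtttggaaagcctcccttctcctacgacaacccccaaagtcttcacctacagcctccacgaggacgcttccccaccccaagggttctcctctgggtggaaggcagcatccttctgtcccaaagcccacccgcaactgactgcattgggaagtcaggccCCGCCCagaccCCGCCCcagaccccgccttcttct
Cacng5 start 2: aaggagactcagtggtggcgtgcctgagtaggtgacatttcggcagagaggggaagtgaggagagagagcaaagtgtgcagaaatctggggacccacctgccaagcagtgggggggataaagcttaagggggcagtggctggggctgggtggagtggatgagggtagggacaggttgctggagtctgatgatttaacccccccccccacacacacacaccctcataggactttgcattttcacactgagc
The Scn2a stretches held 29.6% and 53.2% G and C, with 1 TATA box before the second start. The Cacna2d1 stretch held 82.4%, with 6 GC boxes, 2 EGR sites and 1 CRE core. Those of Cacng5 held 62.0%, with 2 GC boxes and 1 AP-1 site, and 56.8%, with no match.

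RefSeq windows of 300 bases (250 upstream and 50 downstream of a start) were matched for 28 of the 37 members, 38 windows in all. An EGR site lay in 8 of the 38 windows (21.1%) and in 5.55% of all 32851 windows, and a GC box in 15 (39.5%, against 35.7%). The CRE core was in 13.2% against 20.8%, an AP-1 site in 2.63% against 7.81% and a TATA box in 5.26% against 13.6%. The full CRE (TGACGTCA) was in none of the 38 windows and in 1.79% of all windows. Median G and C content was 57.3% in the members' windows and 52.7% over all. The 20 windows of members that fell with IBET858 at 12 h had a median of 53.5%, and the 17 windows of members that were not called had one of 59.3%. These matches describe the letters in the windows only.

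Values are on the submitters' log2 scale after RMA, and each probe set had been centred so that its median over the 24 arrays is 0. A value therefore says how far an array lies from the gene's own median, and no gene's level can be set against another's or called present or absent. A gene's value is the mean of its probe sets, a change is a difference of group means in log2 units, and a gene is called when its limma p-value is under 0.05 after Benjamini-Hochberg adjustment across the 18194 genes. For 11 members the value is that of 1 probe set, so agreement between probe sets could not be checked. Cacna1g, Cacng3, Cacna2d3, Hcn3, Scn4b and Scn11a were among these. The treatments could be seen in genes outside the channels. Hexim1, which BET inhibitors raise, changed with IBET858 by 2.48 (SE 0.10, adjusted p = 3.71e-13) at 2 h, and the activity-dependent gene Arc changed with BDNF by 5.59 (SE 0.14, adjusted p = 1.67e-17) at 2 h. The array DMSO at 2 h replicate 1 deviated from its group mean with an SD of 0.178 over genes and IBET858 at 12 h replicate 3 with 0.157, against 0.0720 to 0.117 for the others.

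After 2 h of IBET858 alone, limma called none of the 37 channel genes (4 at an unadjusted p under 0.05), where it called 14.9% of all genes. Fitted singly, 2 of the members' 87 probe sets were called higher and 1 lower (3.45%, against 11.8% of all probe sets). The changes of the gene averages ran from -0.24 (Cacna2d3) to 0.21 (Cacnb4), with a median of 0.0047 against 0.023 over all genes. After 12 h, 19 of 37 (51.4%) were called, close to the 48.7% of all genes. Of these 17 were lower and 2 higher, whereas over all genes 25.8% were called lower and 22.9% higher. The members' median was -0.14 and that of all genes 0.041. All 3 IBET858 arrays lay below all 3 DMSO arrays in 19 of the 37 members, the 17 called lower among them, and in 26.4% of all genes. With cyclic loess scaling between arrays, 12 members were lower and 2 higher, and 39.9% of all genes were called. In centred data such scaling can take out part of a gene's own change, so it cannot decide whether a call depends on scaling. Fewer cells of a kind and less RNA per cell cannot be told apart in these bulk samples.

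**Figure D1:**
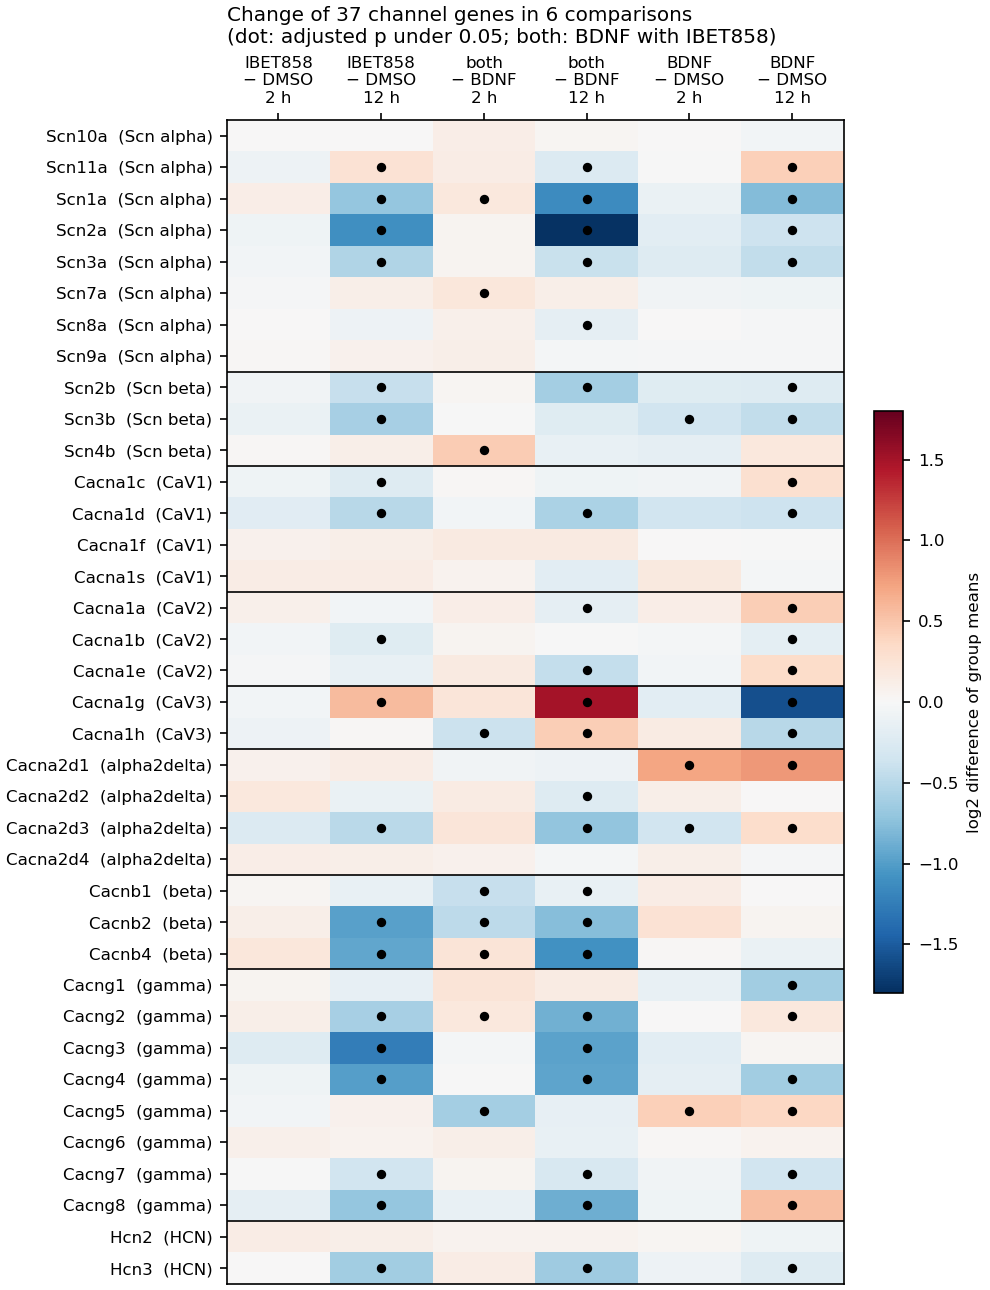
Log2 difference of group means for the 37 channel genes (rows, grouped by subunit family) in 6 comparisons (columns; "both" is BDNF with IBET858); red is higher, blue is lower, and a dot marks adjusted p under 0.05. The column for IBET858 at 2 h has no dot and that at 12 h has 19, of which 17 are lower; with cyclic loess 12 are lower at 12 h, and Scn2a, Scn1a and Cacng4 turn to small positive values.

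Among sodium channel alpha subunits, 3 of 8 fell with IBET858 at 12 h (Scn1a, Scn2a and Scn3a), 1 rose (Scn11a) and 4 were not called, and with cyclic loess Scn1a and Scn2a turned to 0.094 and 0.045. Scn2a encodes NaV1.2, the main sodium channel of the axon initial segment in immature excitatory neurons. The 3 DMSO arrays at 12 h stood at 0.15, 0.092 and 0.16 and the 3 IBET858 arrays at -0.84, -0.93 and -1.16. The groups were far apart, with every IBET858 array lower. The change was -1.11 (SE 0.10, adjusted p = 9.82e-09), which is 2.16-fold lower, and it was 0.045 with cyclic loess (adjusted p = 0.742). At 2 h it was -0.073 (adjusted p = 0.706), and the test of the difference between the times gave -1.04 (SE 0.15, adjusted p = 8.95e-06).

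Scn1a encodes NaV1.1, which carries much of the sodium current of inhibitory interneurons. Its DMSO arrays at 12 h stood at 0.37, 0.28 and 0.29, and its IBET858 arrays at -0.39, -0.26 and -0.49. No IBET858 array reached the DMSO range. The change was -0.70 (SE 0.066, adjusted p = 1.51e-08), and 0.094 with cyclic loess. Scn3a, an alpha subunit of the embryonic brain, fell by 0.55 (SE 0.090, adjusted p = 2.74e-05), and Scn8a, the NaV1.6 channel of mature axons, was at -0.096 (adjusted p = 0.122). Scn11a, best known from sensory neurons, rose by 0.26 (SE 0.086, adjusted p = 0.0143). Its IBET858 arrays were wide apart, at -0.19, 0.0042 and 0.23, above DMSO arrays at -0.23, -0.21 and -0.31. Without the 2 arrays that stood apart, its change was 0.16 and no longer called (adjusted p = 0.121). It was not called either when DMSO replicate 3 or IBET858 replicate 3 was left out (0.16 to 0.23).

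The alpha subunit genes lie in clusters in RefSeq's build GRCm38.p6, and neighbours did not always get the same call. Scn3a and Scn2a are next to each other, with no protein-coding gene between them, and both were called lower with IBET858 at 12 h (Scn2a at 0.045 with cyclic loess). Scn1a, Scn9a and Scn7a follow each other in the same way; Scn1a was called and Scn9a (0.074) and Scn7a (0.10) were not. Scn10a, next to Scn11a, was at 0.0033.

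Of the 3 sodium channel beta subunits measured, Scn2b and Scn3b fell with IBET858 at 12 h and Scn4b was at 0.099 (adjusted p = 0.499). Beta-2 is linked to the alpha subunit by a disulfide bond, and beta-3 is held without one. The change was -0.42 (SE 0.085, adjusted p = 0.000314) for Scn2b and -0.60 (SE 0.11, adjusted p = 0.000117) for Scn3b.

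Of the 9 calcium channel pore genes, 3 fell with IBET858 at 12 h, 1 rose and 5 were not called. Cacna1d, the CaV1.3 pore, fell by 0.50 (SE 0.14, adjusted p = 0.00408). Cacna1b, the N-type CaV2.2 pore of presynaptic terminals, fell by 0.22 (SE 0.049, adjusted p = 0.000606). Cacna1c, the CaV1.2 pore, fell by 0.24 (SE 0.065, adjusted p = 0.00446). The Cacna1c value joins probe sets that did not agree: 1435730_at changed by -0.63 (adjusted p = 1.44e-06) and 1421297_a_at by 0.16 (adjusted p = 0.0867). The P/Q-type pore Cacna1a was at -0.046 and the R-type pore Cacna1e at -0.14, neither called. The gene that rose was Cacna1g, the T-type pore CaV3.1. Its DMSO arrays at 12 h stood at 0.10, 0.0033 and -0.15 and its IBET858 arrays at 0.53, 0.51 and 0.64. All IBET858 arrays were higher, by 0.58 (SE 0.089, adjusted p = 1.3e-05) on average, 1.49-fold. The other T-type gene, Cacna1h, was at 0.014 (adjusted p = 0.921).

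Calcium channel beta subunits bind the pore inside the cell and bring it to the membrane. Of the 3 measured, Cacnb2 and Cacnb4 fell with IBET858 at 12 h, and Cacnb1 was at -0.13 (adjusted p = 0.0502). The 3 DMSO arrays of Cacnb2 stood at 0.0058, 0.072 and 0.13 and its IBET858 arrays at -0.87, -0.91 and -0.93. Both groups were tight and did not overlap, and the change was -0.98 (SE 0.12, adjusted p = 9.36e-07). For Cacnb4 the arrays were -0.036, 0.14 and 0.085 in DMSO and -0.86, -0.76 and -0.99 in IBET858. These groups did not overlap either, with a change of -0.93 (SE 0.081, adjusted p = 3.75e-09), 1.91-fold lower. All 5 probe sets of the 2 genes were called lower, from -0.66 to -1.11. The inhibitor's effect on both genes differed between the times, by -1.08 for Cacnb2 and -1.14 for Cacnb4 (adjusted p = 5.25e-05 and 1.37e-07).

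Among alpha2delta subunits, the large extracellular partners of the pore, Cacna2d3 fell by 0.48 (SE 0.12, adjusted p = 0.00154) with IBET858 at 12 h, and the other 3 were not called. Cacna2d1 was at 0.13 (adjusted p = 0.363), but its 5 probe sets pointed both ways. Probe set 1440397_at fell by 1.44 (adjusted p = 1.39e-05) and 1433643_at fell by 0.33 (adjusted p = 0.000329), while 1441608_at rose by 1.06 (adjusted p = 0.00305), 1449999_a_at by 0.87 (adjusted p = 0.00133) and 1425861_x_at by 0.47 (adjusted p = 0.007). It and Cacna1c were the members with probe sets called in opposite directions within a comparison, out of 26 members with more than 1 probe set. A gene average for Cacna2d1 therefore does not describe its probe sets, and no direction is given for it under IBET858.

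**Figure D2:**
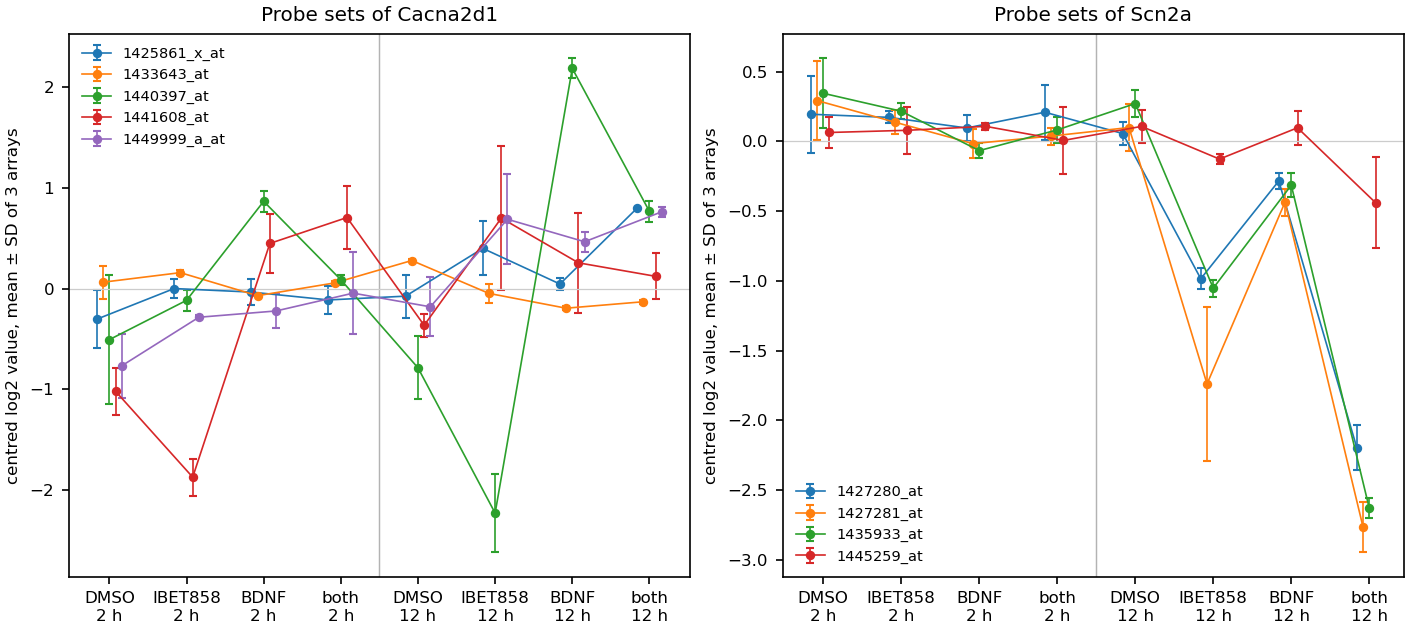
Centred log2 value (mean ± SD of 3 arrays) of each probe set of Cacna2d1 (left, 5 probe sets) and Scn2a (right, 4 probe sets) in the 8 groups; "both" is BDNF with IBET858, and lines join a probe set's groups. At 12 h the Cacna2d1 probe sets part in opposite directions, and 3 Scn2a probe sets lie at -0.98 or lower with IBET858 while 1445259_at changes by -0.23, not called; with cyclic loess the Scn2a gene average changes by 0.045.

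Of the gamma family 5 of 8 were lower with IBET858 at 12 h (Cacng2, Cacng3, Cacng4, Cacng7 and Cacng8), none was higher, and with cyclic loess 2 were called and Cacng4 turned to 0.19 (adjusted p = 0.0559). All 5 are TARPs, of which there are 6 in the family, and Cacng5, the other TARP, was at 0.079. Cacng1 and Cacng6, which belong to skeletal muscle calcium channels or are close to such a subunit, were at -0.15 and 0.068, neither called.

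Cacng3, the TARP gamma-3 of cortex, had the largest fall of the 37 genes with IBET858 alone at 12 h. Its DMSO arrays stood at 0.59, -0.14 and -0.027 and its IBET858 arrays at -1.04, -1.19 and -1.07. The DMSO arrays were spread out and the IBET858 arrays close together, with no overlap. The change was -1.24 (SE 0.15, adjusted p = 6.24e-07), 2.36-fold lower. Cacng4 encodes gamma-4, a TARP prominent in the developing brain. Its DMSO arrays stood at -0.0031, 0.13 and 0.0062 and its IBET858 arrays at -1.01, -1.02 and -0.80. They did not overlap, and the change was -0.99 (SE 0.075, adjusted p = 5.51e-10), and 0.19 with cyclic loess. Cacng8 encodes gamma-8, the TARP that is abundant in hippocampus. Its arrays were -0.29, -0.21 and -0.20 in DMSO and -0.91, -0.87 and -1.02 in IBET858. The IBET858 arrays were all lower, by -0.70 (SE 0.075, adjusted p = 8.08e-08). Its probe set 1459579_at changed by -1.25 (adjusted p = 1.4e-08) and 1451864_at by -0.15 (adjusted p = 0.147). Cacng2 (stargazin) fell by 0.59 (SE 0.060, adjusted p = 3.36e-08) and Cacng7 fell by 0.34 (SE 0.076, adjusted p = 0.00078); with cyclic loess they were at -0.16 and -0.092, not called, and Cacng7 was at -0.18 with the probe set of widest interquartile range, not called.

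Of the 2 HCN genes, Hcn3 fell with IBET858 at 12 h and Hcn2 was at 0.099 (adjusted p = 0.252). The Hcn3 arrays stood at -0.036, 0.082 and -0.048 in DMSO and -0.69, -0.71 and -0.47 in IBET858. The groups lay apart, and the change was -0.63 (SE 0.073, adjusted p = 2.74e-07), or -0.020 with cyclic loess (adjusted p = 0.858).

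**Figure D3:**
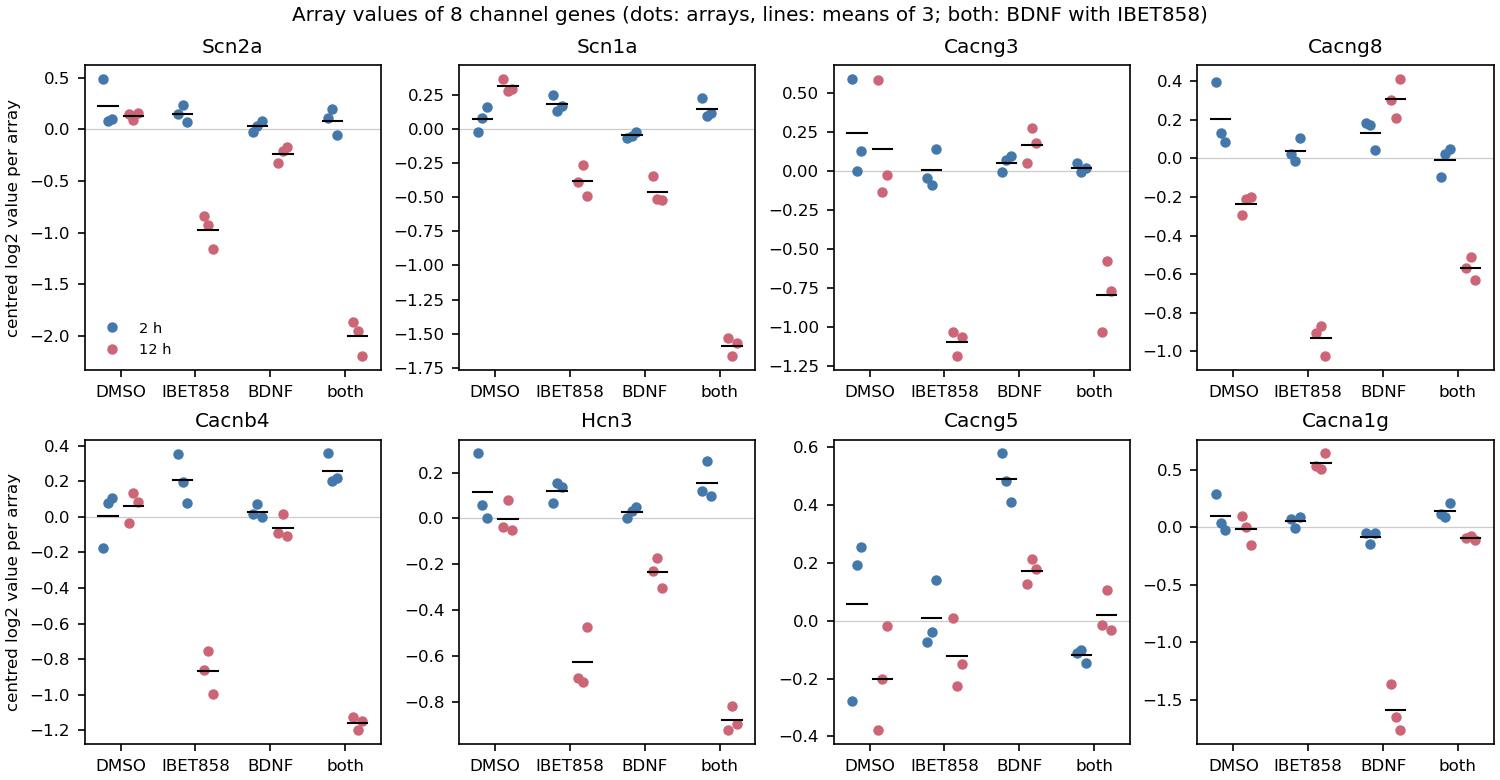
Centred log2 value of each array (dots, blue for 2 h and red for 12 h) and mean of 3 arrays (black lines) for 8 channel genes in the 4 treatments ("both" is BDNF with IBET858). Scn2a at 12 h runs from 0.16 in DMSO down to -2.20 with both agents, and Cacna1g from 0.64 with IBET858 down to -1.76 with BDNF; with cyclic loess the IBET858 changes of Scn2a, Scn1a and Hcn3 at 12 h are 0.045, 0.094 and -0.020.

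Adding IBET858 to BDNF gave a similar number of calls at 12 h. Between BDNF with IBET858 and BDNF alone, 22 of 37 genes were called (59.5%, against 46.8% of all genes): 20 lower and 2 higher, where 25.6% of all genes were called lower and 21.1% higher. The members' median was -0.19 and that of all genes -0.010. All 3 arrays with both agents lay below all 3 BDNF arrays in 24 of the 37 members, the 20 called lower among them, and in 30.7% of all genes. With cyclic loess 14 were lower and 3 higher, and 42% of all genes were called. Without BDNF 17 genes were called lower and with it 20, and 14 were in both sets (82.4% of the 17 and 70.0% of the 20). These 14 were Scn1a, Scn2a, Scn3a, Scn2b, Cacna1d, Cacna2d3, Cacnb2, Cacnb4, Cacng2, Cacng3, Cacng4, Cacng7, Cacng8 and Hcn3. The 2 comparisons share no arrays. The share of all genes called lower in both was not counted, so the overlap is not read as particular to the channels.

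Scn2a had the largest fall in this comparison. Its BDNF arrays at 12 h stood at -0.32, -0.21 and -0.17 and the arrays with both agents at -1.87, -1.95 and -2.20. The groups were well separated, and the change was -1.77 (SE 0.10, adjusted p = 5.15e-12), 3.42-fold lower. With cyclic loess it was -0.67 (adjusted p = 4.05e-06). All 4 of its probe sets were called lower, from -2.33 to -0.54. The Scn1a arrays were -0.35, -0.52 and -0.52 with BDNF and -1.53, -1.66 and -1.57 with both. They did not overlap, with a change of -1.13 (SE 0.066, adjusted p = 6.68e-12). Cacnb4 went from -0.093, 0.015 and -0.11 with BDNF to -1.12, -1.20 and -1.15 with both, again without overlap, a change of -1.10 (SE 0.081, adjusted p = 2.25e-10).

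All 3 calcium channel beta subunit genes were called lower (Cacnb2 at -0.76, Cacnb1 at -0.14), as were the 5 TARPs named above, from -0.29 for Cacng7 to -0.97 for Cacng3 (Cacng4 at -0.96, and 0.16 with cyclic loess). Hcn3 fell by 0.65 (SE 0.073, adjusted p = 1.52e-07), and was at 0.012 with cyclic loess. Of the beta subunits of the sodium channel, Scn2b fell by 0.61 (SE 0.085, adjusted p = 3.13e-06) and Scn3b was at -0.22 (adjusted p = 0.115). Genes called lower with IBET858 in the presence of BDNF and not in its absence were Cacna1a, Cacna1e, Cacna2d2, Cacnb1, Scn8a and Scn11a, with changes from -0.43 (Cacna1e) to -0.14 (Cacnb1). Of these, the difference between the comparisons passed the test for Scn11a and for none of the other 5. Of these 6 calls, 5 depended on the arrays included (both-agent arrays are those with BDNF and IBET858). Cacnb1 was not called when BDNF replicates 1, 2 or 3 or both-agent replicates 1, 2 or 3 was left out (-0.15 to -0.12), nor Cacna1a when BDNF replicate 1 or both-agent replicates 2 or 3 was left out (-0.15 to -0.12), nor Scn11a when BDNF replicates 2 or 3 or both-agent replicate 3 was left out (-0.21 to -0.18). Cacna2d2 was not called when BDNF replicate 2 was left out (-0.15), nor Scn8a when both-agent replicate 2 was left out (-0.14). With cyclic loess Cacnb2, Cacng3, Cacng7 and Cacnb1 were at -0.15, -0.34, -0.0067 and -0.11, not called. With the probe set of widest range per gene Cacna1a, Scn8a and Cacnb1 were at -0.14, -0.12 and -0.23, not called.

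**Figure D4:**
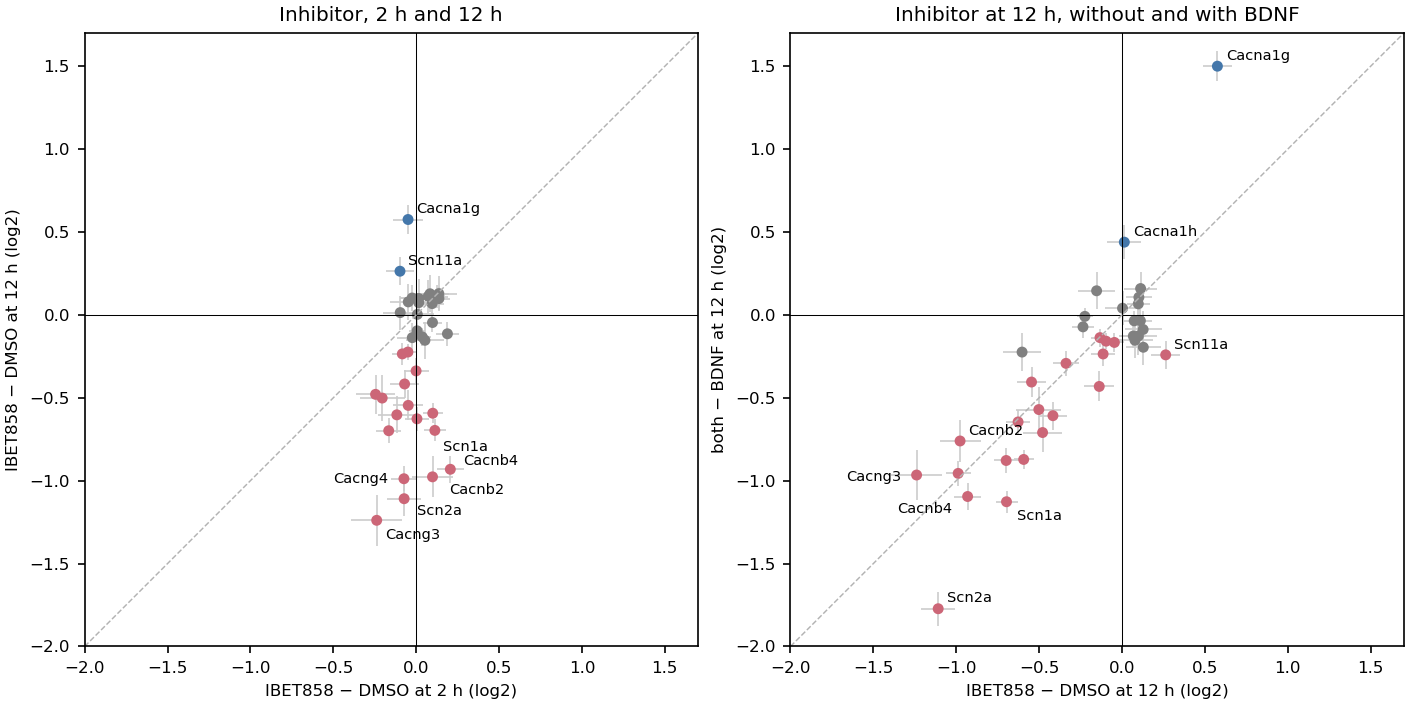
Log2 change of the 37 channel genes with IBET858: left, 12 h against 2 h in the absence of BDNF; right, with BDNF against without BDNF, both at 12 h. Points are genes with SE bars, red and blue mark genes called lower and higher on the vertical axis, grey marks genes not called, and the dashed line marks equal change; at 2 h all genes lie between -0.24 and 0.21, while at 12 h Cacng3 reaches -1.24 without BDNF and Scn2a -1.77 with it (0.045 without and -0.67 with BDNF for Scn2a after cyclic loess).

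The interaction term tests whether the inhibitor's change differs with and without BDNF. At 12 h it was called for 7 of 37 members, 3 above and 4 below 0, against 16.2% of all genes (8.94% above and 7.24% below). The largest was Cacna1g, at 0.92 (SE 0.13, adjusted p = 2.68e-05). Its BDNF arrays at 12 h stood at -1.36, -1.65 and -1.76, far below the DMSO arrays at 0.10, 0.0033 and -0.15, and the arrays with both agents at -0.091, -0.073 and -0.11. With both agents the gene thus lay within the DMSO range, between the BDNF arrays and the IBET858 arrays. BDNF changed it by -1.58 (SE 0.089, adjusted p = 1.01e-11), 2.98-fold lower, and IBET858 added to BDNF by 1.501 (SE 0.089, adjusted p = 7.81e-12), 2.83-fold higher. The same sign was called for Cacna1h, whose interaction was 0.42 (SE 0.14, adjusted p = 0.0495): with BDNF it fell by 0.50 (SE 0.10, adjusted p = 0.000358), and with IBET858 added to BDNF it rose by 0.44. The Cacna1h calls rest on probe set 1422710_a_at, which changed by -0.85 (adjusted p = 6e-08) with BDNF at 12 h, while 1427607_at changed by -0.16 (adjusted p = 0.546). The alternative without letter-suffixed probe sets (a letter before _at) leaves out 1422710_a_at. None of the 3 was called in it (interaction 0.32, adjusted p = 0.432). The Cacna1h interaction was not called when DMSO replicates 1 or 2, IBET858 replicates 1 or 2, BDNF replicates 1, 2 or 3 or both-agent replicates 1, 2 or 3 was left out (0.34 to 0.46).

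The interaction was below 0 for Scn2a, at -0.66 (SE 0.15, adjusted p = 0.00302), and for Scn1a, at -0.43 (SE 0.094, adjusted p = 0.00296). With the 1 probe set of widest interquartile range it was -0.49 for Scn2a, not called (adjusted p = 0.227). Both genes were lower with each agent alone at 12 h and lowest with both (with cyclic loess Scn2a was at 0.045 with IBET858 and 0.054 with BDNF, and Scn1a at 0.094 with IBET858). It was -0.28 for Cacng2 (adjusted p = 0.0276). Scn11a changed sign: its BDNF arrays stood at 0.040, 0.27 and 0.23 and the arrays with both agents at 0.019, -0.016 and -0.18. The inhibitor's change was -0.24 with BDNF and 0.26 without, and the interaction -0.50 (SE 0.12, adjusted p = 0.00619). Cacna1b went the other way, with an interaction of 0.22 (SE 0.069, adjusted p = 0.0379). With the probe set of widest range it was 0.23 for Cacna1b and -0.24 for Cacng2, neither called, and with cyclic loess -0.21 for Cacng2, not called. The Cacna1b interaction was lost when DMSO replicates 1 or 2, IBET858 replicates 1 or 3, BDNF replicates 1, 2 or 3 or both-agent replicates 1 or 3 was left out (0.19 to 0.23), and that of Cacng2 when DMSO replicate 1, IBET858 replicates 2 or 3, BDNF replicate 2 or both-agent replicate 3 was left out (-0.27 to -0.23).

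At 2 h, IBET858 added to BDNF changed 9 of 37 members (27.1% of all genes were called, 12.2% higher and 14.9% lower), 5 higher and 4 lower. The 4 that fell were Cacng5, Cacnb2, Cacnb1 and Cacna1h, by -0.61, -0.47, -0.42 and -0.39. The 5 that rose were Scn4b (0.46), Cacnb4 (0.23), Scn7a (0.21), Cacng2 (0.20) and Scn1a (0.19). The rise of Scn4b, which has 1 probe set, was uneven. Its arrays with both agents ran from -0.023 to 0.52 and overlapped its BDNF arrays, at -0.36 to 0.034. With only the compared groups fitted, Scn4b was not called (adjusted p = 0.0592). Cacnb4, Cacng2 and Scn1a were thus called higher at 2 h and lower at 12 h in this comparison. With cyclic loess the 2 h calls of Scn1a, Cacnb4 and Scn7a were lost (adjusted p = 0.0968, 0.0633 and 0.14). That left 2 members higher and 4 lower, where 25.5% of all genes were called. The smaller rises depended on the arrays included: the call was lost for Scn1a when BDNF replicates 1, 2 or 3 or both-agent replicates 1 or 3 was left out (0.15 to 0.21), for Cacnb4 when BDNF replicates 1, 2 or 3 or both-agent replicates 1 or 3 was left out (0.18 to 0.25), for Scn7a when BDNF replicates 1 or 2 or both-agent replicates 1, 2 or 3 was left out (0.18 to 0.23) and for Cacng2 when BDNF replicates 2 or 3 or both-agent replicate 2 was left out (0.16 to 0.18). The interaction at 2 h was called for 2 members, both below 0, against 8.4% of all genes (3.11% above and 5.29% below). For Cacnb1, the BDNF arrays at 2 h stood at 0.22, 0.23 and 0.13 and the arrays with both agents at -0.15, -0.24 and -0.29, beside DMSO arrays at 0.0073, 0.13 and 0.056. Only the arrays with both agents lay below 0 among these groups, and the interaction was -0.46 (SE 0.077, adjusted p = 0.00041). For Cacng5 the interaction was -0.56 (SE 0.15, adjusted p = 0.0227), not called when IBET858 replicate 3, BDNF replicate 1 or both-agent replicate 3 was left out (-0.55 to -0.50).

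With BDNF alone at 2 h, 4 of 37 members were called, against 27.9% of all genes (9.79% higher and 18.1% lower). This count depended on the processing. It was 12 with the probe set of widest interquartile range (29.6% of all genes) and 9 with array weights (43.6%). It was 7 without letter-suffixed probe sets (26.7%) and 2 with only the compared groups fitted (21.3%). Leaving out 1 array gave 2 to 8. With all arrays and probe sets, 2 members rose and 2 fell. Cacna2d1 and Cacng5 rose, and Scn3b and Cacna2d3 fell. The Cacna2d1 arrays were -0.80, -0.43 and -0.29 in DMSO and 0.20, 0.12 and 0.28 with BDNF. All BDNF arrays were higher, by 0.70 (SE 0.11, adjusted p = 4.51e-05), 1.63-fold. Of its probe sets, 1440397_at rose by 1.37 (adjusted p = 6.26e-05) and 1441608_at by 1.47 (adjusted p = 0.000312), and the other 3 were not called. Cacng5, the TARP gamma-5, was -0.28, 0.19 and 0.25 in DMSO, 0.58, 0.48 and 0.41 with BDNF and -0.11, -0.10 and -0.15 with both agents. The BDNF arrays were the highest, and those with both agents lay below every BDNF array. The change with BDNF was 0.43 (SE 0.11, adjusted p = 0.00394), and 0.27 without the arrays that stood apart, still called. With cyclic loess 3 members rose at 2 h and none fell (Scn3b -0.28 and Cacna2d3 -0.30), where 26.4% of all genes were called.

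The 2 falls at 2 h leaned on 1 DMSO array. Scn3b was 0.73, 0.20 and 0.27 in DMSO and 0.044, 0.12 and 0.00070 with BDNF, and Cacna2d3 was 0.73, 0.062 and -0.0041 in DMSO and -0.092, -0.081 and -0.061 with BDNF. In both genes DMSO replicate 1, the array that stood apart, was the highest by a wide margin. The changes were -0.34 (SE 0.11, adjusted p = 0.0264) and -0.34 (SE 0.12, adjusted p = 0.0323). Without the arrays that stood apart they were -0.18 and -0.11, and neither was called (adjusted p = 0.0646 and 0.193). The call was also lost for Scn3b when DMSO replicate 1 or BDNF replicates 1 or 3 was left out (-0.34 to -0.18) and for Cacna2d3 when DMSO replicate 1 or BDNF replicates 1, 2 or 3 was left out (-0.35 to -0.11).

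After 12 h of BDNF, 22 of 37 members were called (59.5%, against 41% of all genes), 9 higher and 13 lower, where 16.9% and 24.2% of all genes were. Of the 11 sodium channel genes 5 fell (Scn1a, Scn2a, Scn3a, Scn2b and Scn3b), Scn11a rose and the other 5 were not called; with cyclic loess Scn2a turned to 0.054 and Scn2b was at -0.15, not called. Scn1a was 0.37, 0.28 and 0.29 in DMSO and -0.35, -0.52 and -0.52 with BDNF. The groups did not overlap, and the change was -0.78 (SE 0.066, adjusted p = 4.96e-09). Among calcium channel pores the CaV2 genes Cacna1a (0.44) and Cacna1e (0.33) and the CaV1 gene Cacna1c (0.29) rose. The CaV3 genes Cacna1g (-1.58) and Cacna1h (-0.50), the CaV2 gene Cacna1b (-0.17) and the CaV1 gene Cacna1d (-0.37) fell. The Cacna1c probe sets disagreed here too, with 1421297_a_at at 0.80 (adjusted p = 1.79e-08) and 1435730_at at -0.22 (adjusted p = 0.0387). With the 1 probe set of widest interquartile range per gene, Cacna1e was at 0.0067 (adjusted p = 0.956), Cacna1h at -0.16 and Cacna1b at -0.16, not called. With cyclic loess Cacna1d was at -0.28, not called. The calls were lost for Scn2b when DMSO replicate 3 or BDNF replicates 1 or 2 was left out (-0.22 to -0.12) and for Cacna1d when DMSO replicates 1 or 2 or BDNF replicates 1, 2 or 3 was left out (-0.40 to -0.24).

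The gene average of Cacna2d1 was again called higher with BDNF at 12 h. Its probe sets were called in opposite directions here too, so the average does not describe them. Its DMSO arrays stood at -0.42, -0.19 and -0.072 and its BDNF arrays at 0.68, 0.44 and 0.53. They did not overlap, with a change of 0.78 (SE 0.11, adjusted p = 7.15e-06), carried largely by probe set 1440397_at at 2.97 (adjusted p = 9.55e-10), while 1433643_at fell by 0.47 (adjusted p = 6.03e-06). The TARPs went both ways: Cacng8 (0.54), Cacng5 (0.37) and Cacng2 (0.19) rose, and Cacng4 and Cacng7 (-0.35) fell. Cacng1, the skeletal muscle subunit, fell by 0.62 (SE 0.11, adjusted p = 0.000112). Cacng4 was -0.0031, 0.13 and 0.0062 in DMSO and -0.59, -0.52 and -0.65 with BDNF. All BDNF arrays were lower, by -0.63 (SE 0.075, adjusted p = 5.71e-07). Cacng4 and Cacng5 are neighbouring genes, as are Cacng7 and Cacng8, and within each pair BDNF at 12 h lowered the first and raised the second. It lowered both of the neighbours Cacng1 and Cacng4. Cacna2d3 changed sign with time, from -0.34 at 2 h to 0.31 at 12 h, and the difference between the times was 0.65 (SE 0.16, adjusted p = 0.00484), or 0.42 without the arrays that stood apart, still called. With the probe set of widest range Cacng2 was at 0.13, not called. The 12 h calls were lost for Cacna2d3 when DMSO replicates 1, 2 or 3 or BDNF replicates 2 or 3 was left out (0.26 to 0.32), for Cacng5 when DMSO replicate 1 was left out (0.28) and for Cacng2 when DMSO replicate 1 or BDNF replicate 2 was left out (0.15 to 0.16).

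The BDNF and IBET858 comparisons against DMSO at a given time share their DMSO arrays, so their values are only set side by side. How many of all genes had like or opposite calls was not counted, so the counts below are not read as particular to the channels. At 12 h each agent alone was called lower for 10 members. They were Scn1a (-0.78 with BDNF, -0.70 with IBET858), Scn2a (-0.37, -1.11), Scn3a (-0.44, -0.55), Scn2b (-0.23, -0.42), Scn3b (-0.45, -0.60), Cacna1b (-0.17, -0.22), Cacna1d (-0.37, -0.50), Cacng4 (-0.63, -0.99), Cacng7 (-0.35, -0.34) and Hcn3 (-0.23, -0.63), where cyclic loess turned the IBET858 values of Scn1a, Scn2a and Cacng4 and the BDNF values of Scn2a and Hcn3 to above 0. The BDNF call of Hcn3 was also lost when DMSO replicate 2 or BDNF replicate 3 was left out (-0.20 to -0.19). The calls were opposite for 5: Cacna1c (0.29, -0.24), whose probe sets disagree, Cacng8 (0.54, -0.70), Cacng2 (0.19, -0.59), Cacna2d3 (0.31, -0.48) and Cacna1g (-1.58, 0.58).

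For IBET858 alone, the difference between 12 h and 2 h was called for 16 of 37 members (33.1% of all genes, 17.4% below and 15.8% above 0), 14 below and 2 above 0. With cyclic loess 7 were called (2 above and 5 below 0), against 22.9% of all genes, and Scn2a and Cacng4 turned from -1.04 and -0.91 to 0.10 and 0.24. For BDNF alone it was called for 11 (24.8% of all genes, 12.9% above and 11.9% below 0), 6 above and 5 below 0, the largest being Cacna1g at -1.39 (SE 0.13, adjusted p = 6.05e-08).

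Members called in none of the 10 comparisons were Cacna1f, Cacna1s, Cacna2d4, Cacng6, Hcn2, Scn9a and Scn10a, 7 in all. Their changes in the 6 comparisons between groups ran from -0.19 to 0.17, both in Cacna1s, the pore of skeletal muscle. Several are best known outside cortex: Cacna1f from the retina, and Scn9a and Scn10a from sensory neurons. How many of all genes were called in none of the 10 comparisons was not counted.

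A list of 44 partners, scaffolds and regulators of these channels was measured for 40. With IBET858 alone, 1 rose and 2 fell at 2 h, where 14.9% of all genes were called. At 12 h 9 rose and 21 fell, with a median of -0.30, where 22.9% of all genes rose and 25.8% fell. With cyclic loess 11 rose and 16 fell at 12 h. The largest changes at 12 h were in Unc80 (-1.499), a subunit of the sodium leak channel complex, Shisa9 (-1.39), an AMPA receptor partner, Rimbp2 (-1.19), which ties calcium channels to release sites, and Rem2 (-1.14), a small GTPase that inhibits calcium channels. With cyclic loess these were -0.42, -0.99, -0.81 and -1.10, all still called. At 2 h Gem, of the same GTPase family as Rem2, rose by 1.16 (SE 0.22, adjusted p = 0.000609), and Rem2 and Lrp1 changed by -0.31 and -0.45.

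BDNF alone raised 8 partners and lowered 3 at 2 h, and raised 14 and lowered 14 at 12 h (17 and 8 with cyclic loess). Over all genes 9.79% rose and 18.1% fell at 2 h, and 16.9% and 24.2% at 12 h. At 2 h the largest was Rrad, at 4.04 (SE 0.11, adjusted p = 4.45e-17), the relative of Gem and Rem2 that also inhibits calcium channels. Next were Thbs1 (2.14), a thrombospondin, a family that binds alpha2delta-1, Gem (1.35) and Rem2 (1.12). At 12 h they were Pex5l (2.23), the TRIP8b subunit of HCN channels, Rrad (2.14), Gem (2.09) and Cnih3 (1.92), a cornichon of AMPA receptors. IBET858 added to BDNF raised 1 and lowered 7 at 2 h (2 and 6 with cyclic loess; 12.2% and 14.9% of all genes), where Rrad changed by -2.36, Thbs1 by -1.42, Rem2 by -1.10 and Gem by 1.90. At 12 h it raised 8 and lowered 22 (21.1% and 25.6% of all genes), with Shisa9 at -2.09, Unc80 at -1.96 and Cnih3 at -1.49, and Rrad at 2.09 (-0.21 with cyclic loess). The interaction at 2 h was called below 0 for 5 partners and above 0 for none (5.29% and 3.11% of all genes), with Rrad at -2.42 and Thbs1 at -1.36. At 12 h it was above 0 for 6 and below for 11 (8.94% and 7.24% of all genes).

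Marker genes of the cell types in such cultures also changed with IBET858 at 12 h, where 25.8% of all genes were called lower and 22.9% higher. Of 7 general neuron markers 5 fell and none rose (median -0.25), as did 3 of 4 excitatory neuron markers (-0.71), 3 of 7 astrocyte markers (-0.23) and 3 of 6 microglia markers (-0.31). With cyclic loess 1 neuron marker fell and 1 rose, and likewise for excitatory neuron markers. Of 5 interneuron markers 1 fell (median 0.12), and of 5 progenitor markers 1 rose. Of 6 markers each, 1 rose and 1 fell for the oligodendrocyte lineage and for vascular cells and fibroblasts, and 2 rose and 2 fell for muscle. With IBET858 added to BDNF at 12 h, 1 neuron marker rose and 2 fell. Also lower were 2 excitatory neuron, 1 astrocyte, 2 microglia and 1 vascular marker. In addition, 1 oligodendrocyte marker rose and 2 fell, 1 progenitor marker rose and 1 fell, and 2 muscle markers rose and 1 fell. Interneuron markers were not called, and 21.1% of all genes rose and 25.6% fell. With BDNF alone at 12 h, 4 neuron markers fell and 2 rose (median -0.26), 3 astrocyte markers fell (-0.31), and 2 excitatory neuron (0.39), 3 interneuron (0.44) and 3 progenitor markers (0.23) rose, with 1 progenitor marker lower. Also with BDNF at 12 h, 1 oligodendrocyte marker rose and 1 fell, 1 vascular marker rose, and 1 microglia and 2 muscle markers fell; over all genes 16.9% rose and 24.2% fell. With BDNF at 2 h, 3 interneuron markers rose, and 1 neuron, 2 excitatory neuron and 1 progenitor marker fell. At that time 9.79% of all genes rose and 18.1% fell. Since the values hold no level, the presence of each cell type could not be checked. The median of the neuron markers ran from -0.089 to 0.010 over the DMSO arrays at 12 h and from -0.55 to -0.11 over the IBET858 arrays. For excitatory neuron markers the ranges were -0.0041 to 0.069 and -0.83 to -0.40. In both lists IBET858 at 12 h replicate 3 was the lowest array. Its centred value of the 5-prime minus the 3-prime control probe set was -0.22 for Gapdh, the lowest of the 24 arrays, and -0.11 for actin, where DMSO at 12 h replicate 2 was lowest at -0.21. Without the arrays that stood apart, 19 of the 37 channel genes were called at 12 h with IBET858, where 47.6% of all genes were. Of these 19, 18 were also called with all arrays. The part of the markers in the channel results was not tested.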

How the data were processed

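The deposited values are log2 expression values that the authors made with RMA, per the submitters' processing notes; each of 45101 probe sets had a median of 0 over the 24 arrays (tolerance 1e-06), the step that set this is not given in the sources used here, and levels and filters on dim probe sets could not be had. Of the probe sets, 64 were controls, 34958 named 1 gene, 932 named several and 9211 were unnamed here; 34754 of those with 1 gene matched a RefSeq gene by Entrez number and 204 did not. The probe sets of a gene were averaged, giving 18194 genes. A model of 8 group means was fitted with limma 3.58.1 in R 4.3.3 over all genes (16 residual degrees of freedom), with p-values adjusted by the Benjamini-Hochberg method within each of 10 comparisons and a threshold of 0.05. The scripts were tested on simulated data. Members, partner and marker lists were chosen with earlier results of these data known. Array values are given for the called members with the largest changes: up to 8 for IBET858 at 12 h, 4 in the other comparisons with a control and 3 per interaction, with up to 4 partners per comparison. Other array values and the promoters and probe sets shown were chosen after values were seen. The alternatives were array medians set to 0, cyclic loess, array weights, other choices of probe set, robust variance, fits on the compared groups alone, the replicate number as a block, and leaving arrays out. The number of arrays limits the precision. Promoters came from RefSeq, build GRCm38.p6.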

Additional observations from a re-analysis of the deposited data

Results flagged for a closer look

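The results below are differences between differences that passed the limma test over all genes (adjusted p under 0.05). At 2 h the inhibitor's change differed with and without BDNF for Cacnb1 (-0.46) and Cacng5 (-0.56). At 12 h it differed for Cacna1g (0.92), Cacna1h (0.42) and Cacna1b (0.22), which were above 0, and for Scn2a (-0.66), Scn11a (-0.50), Scn1a (-0.43) and Cacng2 (-0.28), which were below. With the probe set of widest range the calls of Cacng5 (-0.74), Cacna1h (0.32), Cacna1b (0.23), Scn2a (-0.49) and Cacng2 (-0.24) were lost.

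The change with IBET858 alone differed between 12 h and 2 h for 16 members. It was below 0 for the beta subunits Cacnb4 (-1.14) and Cacnb2 (-1.08), for the TARPs Cacng3 (-1.001), Cacng4 (-0.91), Cacng2 (-0.69), Cacng8 (-0.53) and Cacng7 (-0.34), for Hcn3 (-0.63) and for Cacna2d2 (-0.30). It was also below 0 for the sodium channel genes Scn2a (-1.04), Scn1a (-0.81), Scn3a (-0.50), Scn3b (-0.49) and Scn2b (-0.35), and above 0 for Cacna1g (0.62) and Scn11a (0.36). With cyclic loess 9 of these calls were lost: Scn2a was at 0.10, Cacng4 at 0.24, Scn1a at -0.032, Hcn3 at -0.041, Cacng8 at -0.073, Cacng7 at -0.12, Cacng3 at -0.44, Scn2b at -0.26 and Scn3b at -0.35. Cacng7 was also lost with the probe set of widest interquartile range (-0.20). The call was lost for Cacna2d2 when DMSO 2 h replicate 1, IBET858 2 h replicate 2, DMSO 12 h replicates 2 or 3 or IBET858 12 h replicates 1 or 2 was left out (-0.29 to -0.25), for Cacng7 when IBET858 2 h replicate 2 or DMSO 12 h replicate 3 was left out (-0.30), for Scn11a when DMSO 2 h replicates 1 or 2, IBET858 2 h replicate 1, DMSO 12 h replicate 3 or IBET858 12 h replicate 3 was left out (0.25 to 0.35), for Scn2b when DMSO 2 h replicate 1, IBET858 2 h replicate 2, DMSO 12 h replicate 3 or IBET858 12 h replicate 2 was left out (-0.32 to -0.24) and for Scn3b when DMSO 2 h replicates 2 or 3, DMSO 12 h replicate 1 or IBET858 12 h replicate 3 was left out (-0.42 to -0.35).

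The change with BDNF alone differed between the times for 11 members. It was below 0 for both T-type genes, Cacna1g (-1.39) and Cacna1h (-0.65), and for Scn1a (-0.66), Cacng1 (-0.48) and Cacng4 (-0.47). It was above 0 for Cacna2d3 (0.65), Cacng8 (0.62), Scn11a (0.44), Cacna1e (0.38), Cacna1c (0.36) and Cacna1a (0.32). With cyclic loess Cacng4 was at -0.15, not called. Without letter-suffixed probe sets Cacna1h (-0.54), Cacna1a (0.21) and Cacna1c (0.20) were not called. With the probe set of widest range Cacna1e (0.13), Cacna1a (0.43) and Cacna1h (-0.54) were not. The call was lost for Cacna1e when DMSO 2 h replicate 1, BDNF 2 h replicates 2 or 3, DMSO 12 h replicate 3 or BDNF 12 h replicates 1 or 2 was left out (0.32 to 0.38) and for Cacng1 when DMSO 2 h replicate 1, BDNF 2 h replicates 1 or 2, DMSO 12 h replicates 2 or 3 or BDNF 12 h replicate 1 was left out (-0.47 to -0.30).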

How the results depend on the processing

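Of 112 called changes of channel genes, 107 kept direction and call with array medians set to 0, 80 with cyclic loess, 110 with array weights, 111 with robust variance, 98 when only the compared groups were fitted, and 104 without both arrays that stood apart. With 1 array left out, 769 of 888 did, and none turned. Without letter-suffixed probe sets 99 of 109 did, and with the 1 probe set of widest interquartile range 90 of 112.

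Cyclic loess fits each array's trend against the gene's mean over the arrays. In centred data that mean holds no level and comes from the gene's own changes between groups. Cyclic loess can therefore take out part of a change, and it cannot decide whether a change depends on scaling. Under it 7 members were called for the change of the IBET858 effect with time (22.9% of all genes), and these values turned: with IBET858 at 12 h Scn1a 0.094, Scn2a 0.045 and Cacng4 0.19; with BDNF at 12 h Hcn3 0.0020 and Scn2a 0.054; with IBET858 added to BDNF at 12 h Hcn3 0.012 and Cacng4 0.16; and between times with IBET858 Scn2a 0.10 and Cacng4 0.24. With array weights 3 members were called for IBET858 at 2 h, 9 for BDNF at 2 h, 4 for the 2 h interaction and 17 for the change of the BDNF effect with time, where 32%, 43.6%, 15% and 37.2% of all genes were called. Without letter-suffixed probe sets 1 was called for IBET858 at 2 h and 7 for BDNF at 2 h, where 14.7% and 26.7% of all genes were. Cacna1c with BDNF at 12 h was then at -0.22 (adjusted p = 0.0283). With the probe set of widest range the counts were 1 for IBET858 at 2 h, 12 for BDNF at 2 h and 4 for the 12 h interaction. Of all genes 15.4%, 29.6% and 14.8% were called. Cacna1c was then at 0.16 with IBET858 at 12 h, 0.29 with BDNF at 2 h and 0.30 with IBET858 added to BDNF at 12 h, and Cacna2d1 at -1.44 with IBET858 at 12 h and -1.83 between times. With only the compared groups fitted, 2 were called for BDNF at 2 h and 1 for the 2 h interaction (21.3% and 7.45% of all genes). Without both arrays that stood apart, 1 was called for IBET858 at 2 h (16.5% of all genes). The causes were not tested.

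With 1 array left out, calls ran from 0 to 1 for IBET858 at 2 h, 18 to 20 at 12 h, 2 to 8 for BDNF at 2 h, 18 to 20 at 12 h, 5 to 7 for IBET858 added to BDNF at 2 h, 19 to 21 at 12 h, 1 to 4 and 4 to 7 for the interactions at 2 h and 12 h, and 13 to 17 and 9 to 11 for the changes with time of the IBET858 and BDNF effects. In the same order, shares of all genes ran from 11.8% to 15.8%, 44.2% to 49.5%, 23.1% to 28.2% and 36.6% to 38.4%. The next were 22.8% to 25%, 43.3% to 44.3%, 6.67% to 9.37% and 12.8% to 17.1%. Those for the changes with time were 30.3% to 34.8% and 21.7% to 27.6%. Over 28 pairs of arrays with the same replicate number, the correlation of deviations from group means had a median of -0.012, 0.032 and -0.0021 for numbers 1, 2 and 3, with a highest value of 0.51, 0.24 and 0.32 and 4, 4 and 2 pairs over 0.1. As most pairs were not over 0.1, the numbers were not taken to pair the samples. With the replicate number as a block 19 members were called for IBET858 at 12 h, 22 for BDNF at 12 h and 21 for IBET858 added to BDNF at 12 h. Of all genes 48.5%, 40.7% and 46.7% were called, and 109 of 112 called changes of members kept their call.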
